A study of Mus musculus with 6 samples.

Results

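The major histocompatibility complex (MHC) class I presentation pathway was followed through 10 genes: the classical heavy chains H2-K1 and H2-D1, the light chain B2m, the peptide transporter subunits Tap1 and Tap2, the loading factor Tapbp, the inducible proteasome subunits Psmb8, Psmb9 and Psmb10, and the transcriptional regulator Nlrc5. The genes were chosen by name, and their Ensembl identifiers were matched to GENCODE mouse symbols. All 10 were found among the 56941 identifiers of the count table, and all 10 were among the 13299 genes that passed the filter on low counts. The cells were naive CD8+ T cells, labelled as purified from splenocytes of B6 mice, which were stimulated for 3 days with plate-bound antibodies to CD3 and CD28 and recombinant IL-2 at 100 U/ml. At 24 h the cultures received either sphingosine-1-phosphate (S1P, 5 µM), a lipid ligand of the receptor S1PR1, or vehicle. Bulk polyadenylated RNA was sequenced from 3 vehicle-treated and 3 S1P-treated samples, labelled as biological replicates 1 to 3 of each group. Neither the age of the mice behind these samples nor the number of mice behind a sample is given in the sources used here. Ages are stated in the authors' methods under tumour implantation and cell transfer, and none is tied to these samples. The comparison asked whether S1P changed the transcripts with which activated CD8+ T cells display their own peptides.

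Class I molecules show fragments of a cell's own proteins to CD8+ T cells. Proteasomes cut the proteins, the transporter formed by TAP1 and TAP2 pumps the peptides into the endoplasmic reticulum, tapasin (Tapbp) holds the transporter next to empty class I molecules, and a heavy chain pairs with β2-microglobulin (B2m) around a fitting peptide. In the immunoproteasome, which interferon gamma induces, the subunits β5i, β1i and β2i (Psmb8, Psmb9 and Psmb10) take the place of the constitutive catalytic subunits β5, β1 and β2 (Psmb5, Psmb6 and Psmb7). NLRC5 is a transactivator of class I genes that acts through a multiprotein complex on the conserved SXY module of their promoters, and it is well expressed in lymphocytes.

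Total counts were 13636095 to 17089831 in vehicle-treated samples and 12048880 to 17384084 in S1P-treated samples, and the 10 genes together took 0.382 to 0.402% and 0.402 to 0.414% of them. S1P-treated replicate 2 stood apart. Mitochondrial genes took 7.80% of its counts against 4.10 to 4.93% in the other 5 samples. Values without it are therefore given beside several of the calls and differences that it moved. Transcripts of cells other than CD8+ T cells were present in every sample. For cultures of this kind the authors' methods name either total splenocytes or purified naive T cells, while the labels here name purified cells. The summed normalized count of 6 B cell markers (Cd79a, Cd79b, Ms4a1, Pax5, Ighm and Cd22) was 14755 to 17939 with vehicle and 15410 to 16841 with S1P, next to 17731 to 19757 and 15687 to 16854 for 6 CD8+ T cell genes (Cd8a, Cd8b1, Cd3e, Cd3d, Cd3g and Lck). Of those B cell markers, Ms4a1 and Cd22 fell (log2 fold changes -0.39 and -0.44), and of the T cell genes Cd8a and Cd8b1 fell (-0.67 and -0.55). The other T cell genes were not called, with Cd3d at -0.28, Cd3g at -0.21, Lck at -0.04 and Cd3e at 0.15. Ms4a1 lost its call without vehicle-treated replicate 1 or vehicle-treated replicate 3 (edgeR adjusted p = 0.0513 and 0.0508), and Cd8b1 was at -0.37 without vehicle-treated replicate 2. Pax5 went the other way without being called (0.33, edgeR adjusted p = 0.0700, groups not overlapping), Ighm was at 0.01, and Cd79a and Cd79b were at -0.11 and -0.27. The sum of 3 CD4+ T cell genes was 3192 to 3786 with vehicle and 3459 to 4368 with S1P, with Zbtb7b called higher (log2 fold change 0.37) and Cd4 and Foxp3 uncalled at 0.10 and 0.02, and that of 8 myeloid genes was 72.4 to 118 over all samples, with Lyz2 and Cd14 at or near 0. Of 3 NK cell genes, Ncr1 and Klrb1c were at a mean of at most 10.2 normalized counts in either group, and Eomes, which activated CD8+ T cells also express, fell (-0.86). B cells and CD4+ T cells use the same class I genes, and the part of these transcripts in the results below was not tested. In bulk RNA, fewer cells of a type and less RNA per cell cannot be told apart.

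The sequences before the start sites are shown first, because the classical class I genes and B2m share an arrangement of short motifs that was not found in the other 5 windows. RefSeq promoter windows (mouse build GRCm38.p6) were found for 8 of the 10 genes. Tap2 and Nlrc5 were not among them. Shown 5′ to 3′ are the 250 bases before the start of H2-K1 (the second of its 2 windows, chr17:34000334-34000583, minus strand), H2-D1 (chr17:35262844-35263093, plus strand), B2m (chr2:122147437-122147686, plus strand), Tap1 (chr17:34187306-34187555, plus strand) and Psmb10 (chr8:105938393-105938642, minus strand), the only 1 of the 10 genes that changed past both thresholds. Capitals mark matches on either strand to any of 5 motifs.
H2-K1: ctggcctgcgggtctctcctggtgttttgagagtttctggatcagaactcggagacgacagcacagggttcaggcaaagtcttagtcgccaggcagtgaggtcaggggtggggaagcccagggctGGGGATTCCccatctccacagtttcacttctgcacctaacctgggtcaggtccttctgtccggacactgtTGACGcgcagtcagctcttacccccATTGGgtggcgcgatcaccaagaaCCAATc
H2-D1: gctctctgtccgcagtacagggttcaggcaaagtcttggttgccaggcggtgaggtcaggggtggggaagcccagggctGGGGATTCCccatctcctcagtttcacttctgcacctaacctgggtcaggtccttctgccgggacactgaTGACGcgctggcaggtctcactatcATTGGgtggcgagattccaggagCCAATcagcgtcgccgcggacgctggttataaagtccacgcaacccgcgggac
B2m: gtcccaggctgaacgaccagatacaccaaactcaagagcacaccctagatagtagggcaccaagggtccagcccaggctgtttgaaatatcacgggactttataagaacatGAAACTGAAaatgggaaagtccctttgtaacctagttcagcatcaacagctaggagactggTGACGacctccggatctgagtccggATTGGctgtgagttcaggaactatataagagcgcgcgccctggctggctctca
Tap1: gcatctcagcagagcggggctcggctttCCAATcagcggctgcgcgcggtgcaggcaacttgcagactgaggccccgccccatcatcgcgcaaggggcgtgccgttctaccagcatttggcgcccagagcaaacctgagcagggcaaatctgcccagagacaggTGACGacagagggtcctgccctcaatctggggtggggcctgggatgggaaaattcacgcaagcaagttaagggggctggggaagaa
Psmb10: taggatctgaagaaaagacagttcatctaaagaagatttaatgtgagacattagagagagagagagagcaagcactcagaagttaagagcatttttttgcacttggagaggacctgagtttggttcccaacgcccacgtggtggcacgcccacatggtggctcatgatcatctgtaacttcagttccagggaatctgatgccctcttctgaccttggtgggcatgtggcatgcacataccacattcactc

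The motifs were TGACG (an X2-like site, part of the SXY module), ATTGG (an inverted CCAAT box, the Y site), GGGGATTCC (a kappa B site), GAAANNGAA (the core of an interferon-stimulated response element) and TTCNNNGAA (the core of a gamma-activated site). Windows of 300 bases, 250 before and 50 after the start, were searched. TGACG was found for 5 of the 8 genes (H2-K1, H2-D1, B2m, Tap1 and Psmb9), and for 6228 of the 27025 genes of the RefSeq table. ATTGG was found for 6 of 8, against 41.1% of all genes. In H2-K1, H2-D1 and B2m, TGACG was followed on the same strand by ATTGG with 20 bases between them. This spacing, which was noticed in the sequences and then counted, was found in 27 of 27025 genes, or 0.0999%, and the class Ib gene H2-M3 was another of these. GGGGATTCC stood upstream of the pair in H2-K1 and H2-D1, and in 0.296% of all genes. B2m alone among the 8 held GAAANNGAA (9.76% of all genes), and Psmb8 alone held TTCNNNGAA (9.55%). The windows of Tap1 and Psmb9, which are read in opposite directions, shared 275 bases. Their TGACG matches were the same bases, and so were their ATTGG matches, so each site was counted under both genes. The window of Psmb10 held none of the 5. A match is a string of letters and was not tested as a binding site.

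Of the 10 genes, Psmb10 fell with S1P and none rose. A gene was called when edgeR's quasi-likelihood test gave an adjusted p no higher than 0.05 and its log2 fold change reached 0.3 in either direction. Under this rule 12.7% of all tested genes were called higher and 10.4% lower. The 0 higher and 1 lower of 10 were thus not more than the background share. At an unadjusted p under 0.05 there were 1 higher (B2m) and 2 lower (Psmb8 and Psmb10). The share of all tested genes at this threshold is not given here, so nothing was drawn from these counts. DESeq2 called B2m higher and Psmb10 lower, and limma-voom called 0 higher and Psmb10 lower. Over all tested genes, DESeq2 called 1506 higher and 1336 lower, and limma-voom 1653 and 1401. The median log2 fold change of the 10 genes was -0.05, next to 0.01 over all tested genes. Without any overlap between groups, 4 of the 10 were lower with S1P (Tap2, Tapbp, Psmb8 and Psmb10). Over all tested genes, 22.6% were lower without overlap and 23% were higher without overlap. For 6 genes (H2-K1, H2-D1, Tap1, Tapbp, Psmb9 and Nlrc5) the 95% interval of the log2 fold change lay within 0.3 of 0 in both directions.

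**Figure D1:**
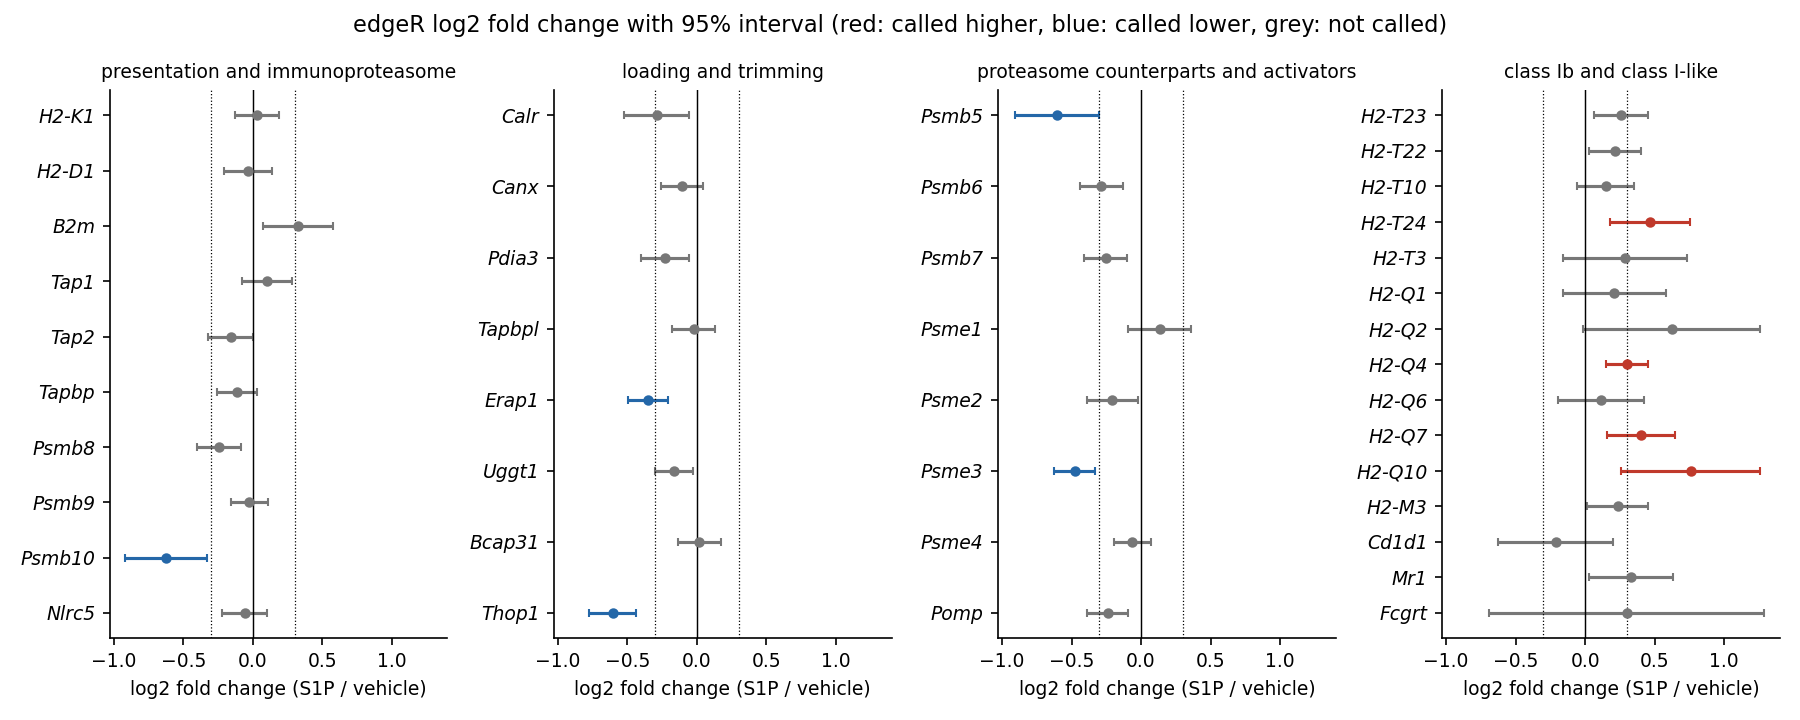
Log2 fold change of S1P-treated over vehicle-treated samples (horizontal axis) with its 95% interval from edgeR, for the 10 genes, 8 genes of peptide loading and trimming, 8 proteasome counterparts and activators, and 15 class Ib and class I-like genes; dotted lines mark 0.3 and -0.3. Psmb10, at -0.62, is the single coloured point of the first panel. In the last panel 14 of the 15 points lie right of 0, as did 6851 of all 13299 tested genes.

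The classical heavy chains, which bind the peptide, were not called, and their intervals left no room for a log2 fold change of 0.3. H2-K1 (ENSMUSG00000061232; chr17:34214987-34219321, minus strand, in GRCm39) had normalized counts of 11290, 11087 and 11577 with vehicle and 12188, 10761 and 11673 with S1P. The groups overlapped, with S1P-treated replicate 2 the lowest of all 6 samples and S1P-treated replicate 1 the highest. The log2 fold change was 0.03 (SE 0.07, 95% interval -0.13 to 0.19, edgeR adjusted p = 0.803). H2-D1 (ENSMUSG00000073411; chr17:35481691-35486475, plus strand) had 9470, 9476 and 9992 with vehicle and 10119, 8521 and 9600 with S1P, in the same order of replicates within the S1P group. Its log2 fold change was -0.03 (SE 0.08, 95% interval -0.21 to 0.14, edgeR adjusted p = 0.772). The coding sequences of both genes are 91.5% identical, and how reads that match both were counted is not given in the sources used here. Their summed count, which does not depend on that split between them, had a log2 fold change of -0.00035 (SE 0.08, 95% interval -0.17 to 0.17, edgeR adjusted p = 0.998).

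B2m, the light chain that all class I heavy chains need to reach the cell surface, was the highest of the 10 and had the largest positive difference. Its normalized counts (ENSMUSG00000060802; chr2:121977957-121983594, plus strand) were 17794, 19391 and 19847 with vehicle and 19692, 28221 and 23657 with S1P. S1P-treated replicates 2 and 3 were above every vehicle-treated sample, while S1P-treated replicate 1 was below vehicle-treated replicate 3, so the groups overlapped. The means were 19011 ± 1078 and 23857 ± 4268 (SD, n = 3). The log2 fold change of 0.33 (SE 0.12, 95% interval 0.08 to 0.58) just missed the threshold (edgeR adjusted p = 0.0518). It was 0.19 without S1P-treated replicate 2 (adjusted p = 0.0802) and 0.45 without S1P-treated replicate 1 (adjusted p = 0.00338), where B2m was called higher. With an offset for GC content it was 0.29 (adjusted p = 0.0609), and at 45.5% B2m had the lowest exon GC content of the 10 genes, next to 52.7 to 56.6% for the others. Per kilobase of exon, B2m stood to H2-K1 and H2-D1 together as 1.26, 1.39 and 1.35 to 1 with vehicle and as 1.30, 2.15 and 1.63 to 1 with S1P, an overlap of the groups (exact permutation test on the log2 ratios, two-sided, p = 0.3). The smallest p this test can give with 3 samples against 3 is 0.1.

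**Figure D2:**
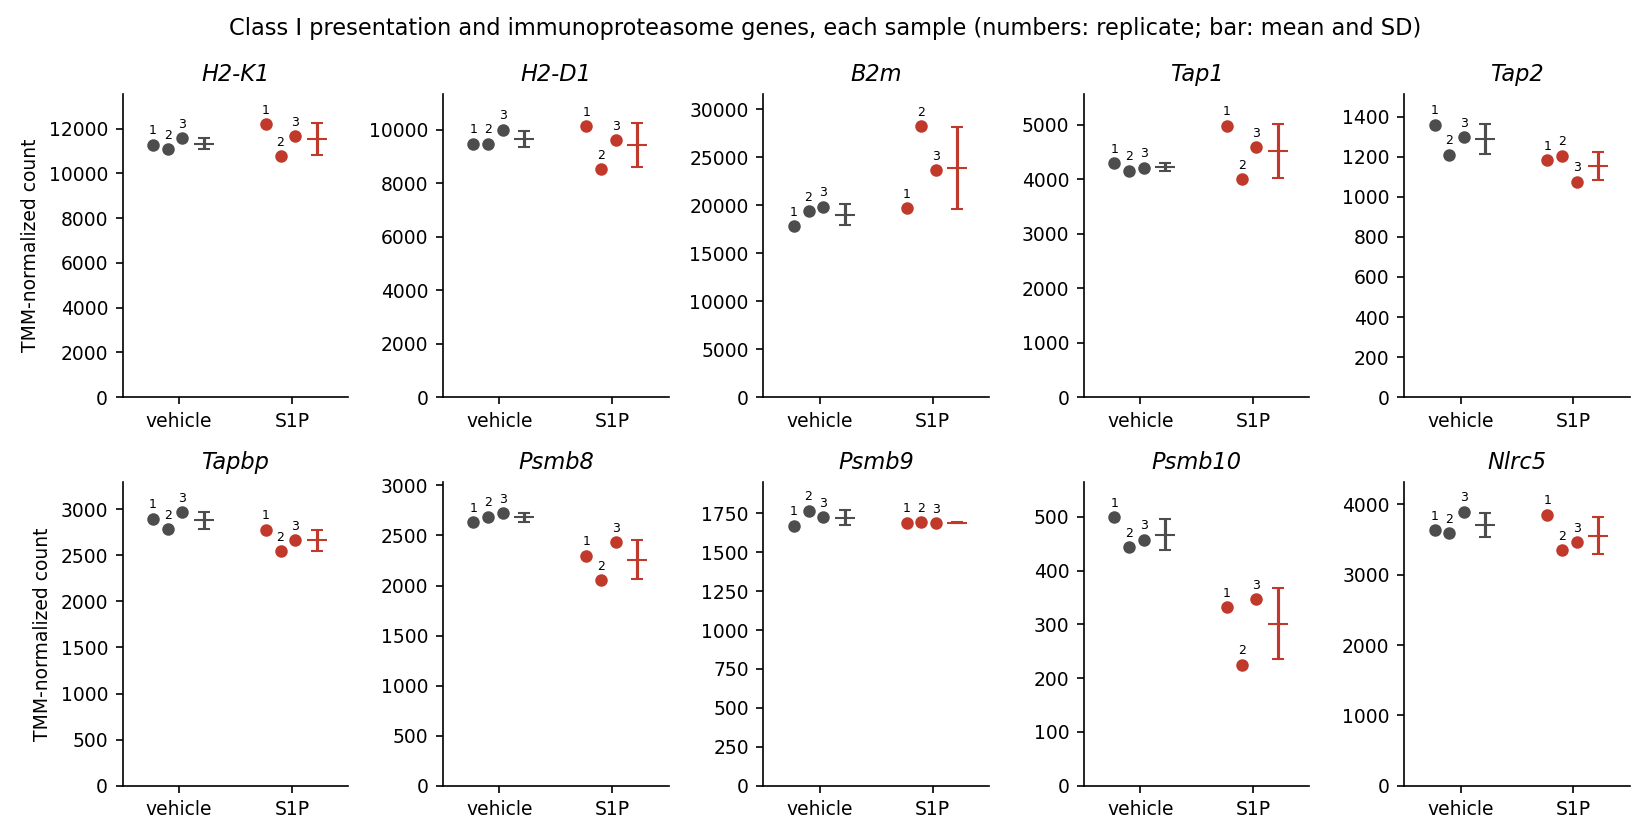
Normalized counts (vertical axes, from 0) of the 10 genes in each vehicle-treated and S1P-treated sample, numbered by replicate, with the mean and SD beside the points. Psmb10 is separated between the groups (443 to 500 against 225 to 347), B2m is spread from 19692 to 28221 within the S1P group, and H2-K1 and H2-D1 overlap.

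Among the non-classical class Ib heavy chains, which present narrower sets of ligands, calls were all towards higher levels. Of 15 tested class Ib and class I-like genes, 4 rose and 0 fell (over all tested genes, 12.7% were called higher). A positive log2 fold change was found for 14 of the 15, next to 6851 of all 13299 tested genes. The median was 0.29, next to 0.01 over all tested genes. H2-T24 rose by 0.47 (SE 0.13, edgeR adjusted p = 0.0208), H2-Q4 by 0.30 (SE 0.07, adjusted p = 0.00811) and H2-Q7, the gene of a Qa-2 antigen, by 0.40 (SE 0.11, adjusted p = 0.0190). H2-Q10 rose by 0.76 (SE 0.23, adjusted p = 0.0285) from a low level of 28.5 to 48.1 normalized counts. H2-T23 encodes Qa-1, a ligand of NKG2A receptors on NK cells and CD8+ T cells, and its 0.26 passed the adjusted p alone (0.0461). H2-M3, which presents formylated peptides, and the MAIT cell ligand Mr1 were at 0.23 and 0.33 (adjusted p = 0.0993 and 0.0920). The uncalled H2-T22, H2-T10, H2-T3, H2-Q1, H2-Q2 and H2-Q6 were at 0.11 to 0.62. The lipid-presenting Cd1d1 was at -0.21, the neonatal Fc receptor gene Fcgrt at 0.30 with an SE of 0.45, and H2-M2 was too low to test. The single calls rest on all 6 samples: 3 genes were called without S1P-treated replicate 2 (H2-T23, H2-Q7 and H2-Q10), 2 without S1P-treated replicate 1 or S1P-treated replicate 3, 1 without vehicle-treated replicate 1 or vehicle-treated replicate 3, and 0 without vehicle-treated replicate 2. There H2-T24, H2-Q7 and H2-Q10 were at 0.42, 0.42 and 0.69 and missed the adjusted p (0.0827, 0.0552 and 0.0952), and H2-Q4 missed the fold threshold at 0.28. H2-T24 was at 0.27 without S1P-treated replicate 2, and H2-Q7 at 0.26 without S1P-treated replicate 1. H2-Q4 lost its call under 9 of 19 alternatives, at 0.297 with DESeq2 and 0.273 with scaling by total count. Over all genes, 1322 of 13755 were called higher without vehicle-treated replicate 2, and 1158 to 1736 over the 6 fits without 1 library. With all samples it was 1687 of 13299. Class Ib genes share up to 9.8% of their exonic stretches of 100 bases with other genes, chiefly one another, so the split of reads among them is uncertain.

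The sum over the 13 class Ib heavy chain genes does not depend on how reads were split among them, but it does on reads shared with genes outside the sum, H2-D1 and H2-K1 among these. It was 7422, 7274 and 7711 with vehicle and 9551, 8744 and 8988 with S1P, without overlap, a log2 fold change of 0.28 (SE 0.07, 95% interval 0.14 to 0.43, edgeR adjusted p = 0.00986), just under the fold threshold. The difference from the classical genes was taken within each sample. Class Ib genes made up 26.3, 26.1 and 26.3% of all class I heavy chain counts with vehicle and 30.0, 31.2 and 29.7% with S1P. Every S1P-treated sample lay above every vehicle-treated sample, by 4.03 percentage points between the means (p = 0.1 in a two-sided exact permutation test, which can go no lower here). This share was computed after the class Ib values had been seen. All 15 class I heavy chain genes summed had a log2 fold change of 0.08 (SE 0.08, edgeR adjusted p = 0.474). It was 0.03 without S1P-treated replicate 1 and 0.13 without S1P-treated replicate 2, called in neither fit.

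**Figure D3:**
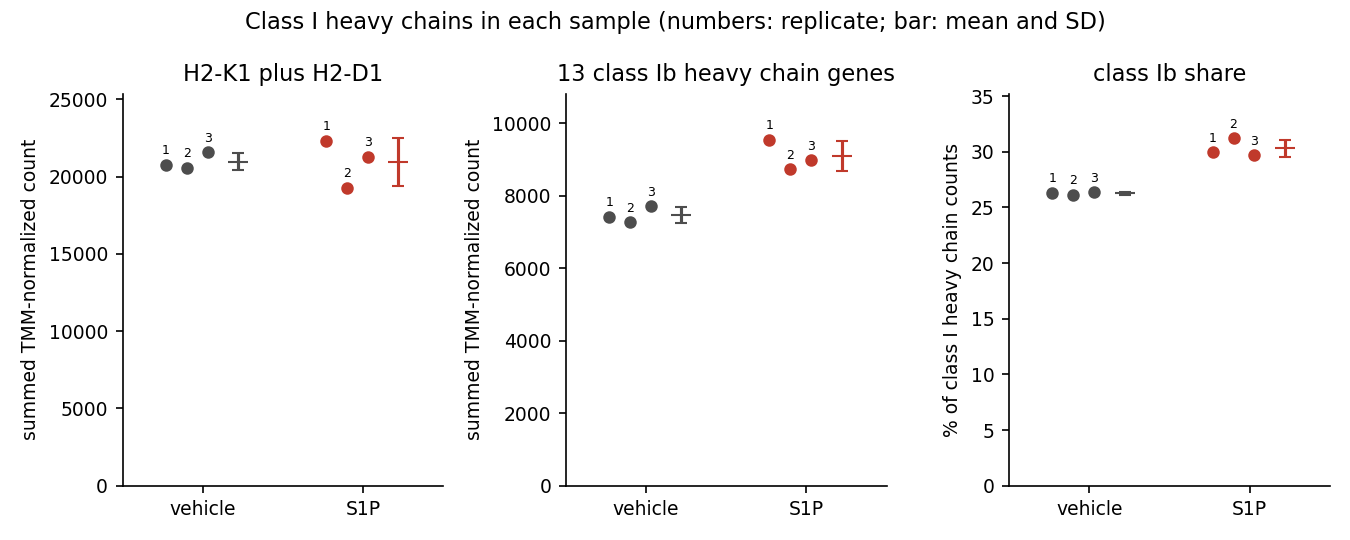
Summed normalized counts of H2-K1 plus H2-D1 and of 13 class Ib heavy chain genes, and the class Ib share of class I heavy chain counts in percent (vertical axes, from 0), in each numbered sample with mean and SD. The classical sum overlaps between groups, while the class Ib sum (7274 to 7711 against 8744 to 9551) and share do not.

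Among the genes of peptide supply to the endoplasmic reticulum, no member was called. Tap1 (ENSMUSG00000037321; chr17:34405996-34416199, plus strand), which encodes a subunit of the transporter, had 4295, 4156 and 4212 normalized counts with vehicle and 4984, 4005 and 4586 with S1P. Replicates 1 and 3 of the S1P group were above all vehicle-treated samples and replicate 2 was below them (log2 fold change 0.10, SE 0.08, 95% interval -0.08 to 0.28, edgeR adjusted p = 0.380). Without S1P-treated replicate 2 the difference was 0.18 (adjusted p = 0.0259), still under the fold threshold, and without S1P-treated replicate 1 it was 0.02 (adjusted p = 0.839). Tap2, the partner subunit (ENSMUSG00000024339; chr17:34422501-34435829, plus strand), had 1360, 1211 and 1297 with vehicle and 1184, 1206 and 1076 with S1P. These groups were separated by a narrow gap, with S1P lower, and the log2 fold change was -0.16 (SE 0.07, 95% interval -0.32 to 0.0026, edgeR adjusted p = 0.129). Both subunits form the transporter in equal numbers, and the log2 ratio of Tap1 to Tap2 per kilobase went from 1.38 ± 0.06 to 1.63 ± 0.20 (SD, n = 3), with overlap (exact permutation test, two-sided, p = 0.2). Tapbp (ENSMUSG00000024308; chr17:34134873-34148267, plus strand) had 2895, 2782 and 2966 with vehicle and 2776, 2547 and 2663 with S1P, a gap of under 10 counts between the groups. Its log2 fold change was -0.11 (SE 0.07, 95% interval -0.26 to 0.03, edgeR adjusted p = 0.217), and 20.9% of its exon bases lie under Zbtb22 on the same strand.

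Of 8 further genes of loading and trimming, 2 fell and 0 rose (10.4% of all tested genes were called lower), with a median log2 fold change of -0.20. Both that fell are peptidases. Erap1, which trims peptides in the endoplasmic reticulum to class I length, went from 4766 ± 45 to 3733 ± 183 (SD, n = 3; log2 fold change -0.35, SE 0.07, edgeR adjusted p = 0.00238). Thop1, a cytosolic peptidase that destroys class I ligands among other peptides, went from 783 ± 33 to 514 ± 30 (SD, n = 3; -0.61, SE 0.08, edgeR adjusted p = 0.000273). The chaperones that fold heavy chains had smaller differences. Pdia3 (ERp57), a partner of tapasin, passed the adjusted p alone (-0.23, 0.0493), and Calr was at -0.29 (0.0629). Calr was called lower under 5 of 19 alternatives. Among them were the replicate block (-0.30, adjusted p = 0.0391) and limma-voom (-0.30, adjusted p = 0.0474). Without S1P-treated replicate 2, Pdia3 and Calr were called lower too (-0.30 and -0.44), while over the fits without 1 library they came as near to 0 as -0.17 and -0.19, with adjusted p up to 0.153 and 0.186. Uggt1, which reglucosylates misfolded proteins, was at -0.17, Canx at -0.11, the tapasin-related Tapbpl at -0.02 and Bcap31 at 0.02, all uncalled.

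Of the 3 inducible catalytic subunits, Psmb10 fell past both thresholds. Psmb10 (β2i, ENSMUSG00000031897; chr8:106662362-106665077, minus strand) had 500, 443 and 458 normalized counts with vehicle and 332, 225 and 347 with S1P. All S1P-treated samples were below all vehicle-treated samples, and replicate 2 was the lowest. The mean went from 467 ± 29 to 301 ± 66 (SD, n = 3), 0.645 of the vehicle level, and the log2 fold change was -0.62 (SE 0.14, 95% interval -0.92 to -0.33, edgeR adjusted p = 0.00584). It was -0.46 without S1P-treated replicate 2 (adjusted p = 0.00142), and Psmb10 was called lower in each of the 6 fits without 1 library. Psmb8 (β5i, ENSMUSG00000024338; chr17:34416690-34420428, plus strand), with 2631, 2689 and 2720 against 2299, 2050 and 2430, was also lower in every S1P-treated sample. Its log2 fold change of -0.25 (SE 0.07, 95% interval -0.41 to -0.08) passed the adjusted p (edgeR, 0.0271) and not the fold threshold. The value was -0.18 without S1P-treated replicate 2. With the offset for GC content it was -0.19 and missed the adjusted p (0.0506). Psmb9 (β1i, ENSMUSG00000096727; chr17:34400960-34406738, minus strand), which lies head to head with Tap1, had 1671, 1768 and 1725 against 1691, 1693 and 1688. The S1P values lay inside the vehicle range (log2 fold change -0.03, SE 0.06, 95% interval -0.16 to 0.11, edgeR adjusted p = 0.792).

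The constitutive subunits that these replace had negative differences as well, so the balance within each pair was taken as a ratio of counts per kilobase of exon. Psmb5 (β5) fell from 288 ± 44 to 188 ± 27 normalized counts (SD, n = 3; log2 fold change -0.60, SE 0.14, edgeR adjusted p = 0.00805). Psmb6 (β1) and Psmb7 (β2) were at -0.29 and -0.26 and passed the adjusted p alone (edgeR, 0.0111 and 0.0204). Psmb8 to Psmb5 stood at 5.83, 4.62 and 4.46 with vehicle and 6.50, 6.61 and 5.90 with S1P, a difference of 0.36 in the log2 ratio. Psmb9 to Psmb6 stood at 0.738, 0.718 and 0.709 with vehicle and 0.866, 0.914 and 0.819 with S1P, a difference of 0.26. Psmb10 to Psmb7 moved the other way, from 1.33, 1.20 and 1.18 to 1.14, 0.689 and 1.04, a difference of -0.40. For all 3 pairs the groups did not overlap, and the exact permutation test (two-sided) gave its smallest possible p of 0.1. The level of each ratio depends on the gene lengths used. The differences cannot depend on them, because a gene's length is the same in all samples. Without S1P-treated replicate 2 the difference for Psmb10 to Psmb7 was -0.18, with the groups still apart. Psmb5 shares 18.7% of its exonic stretches of 100 bases with other genes, and 46.8% of the exon bases of Psmb7 lie under Nek6 on the opposite strand.

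**Figure D4:**
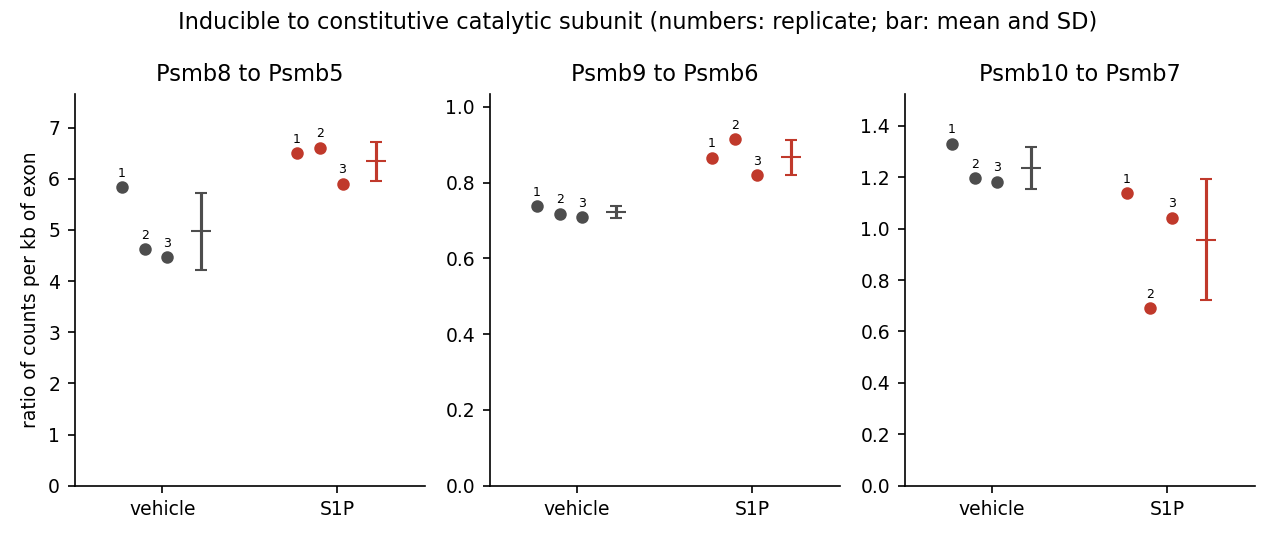
Ratio of an inducible catalytic subunit to its constitutive counterpart in counts per kilobase of exon (vertical axes, from 0), in each numbered sample with mean and SD. Psmb8 to Psmb5 and Psmb9 to Psmb6 are higher in all S1P-treated samples, and Psmb10 to Psmb7 is lower, with replicate 2 at 0.689.

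Other proteasome genes were mostly at negative values. Of 11 genes of the core particle (Psma1 to Psma7 and Psmb1 to Psmb4), 3 fell (Psmb4 -0.50, Psmb3 -0.44 and Psma1 -0.32), 0 rose, and the median was -0.21. Over all tested genes 10.4% were called lower. Without S1P-treated replicate 2, Psmb4 was at -0.34 and still called. Psma1 was at -0.29 without S1P-treated replicate 2 and at -0.28 without S1P-treated replicate 1, under the fold threshold. Of the proteasome activators, the interferon-inducible PA28 subunits Psme1 and Psme2 were not called (0.13 and -0.21, edgeR adjusted p = 0.368 and 0.0832). Without S1P-treated replicate 2, Psme1 was at -0.0109. Psme3, the nuclear PA28γ, fell from 6796 ± 247 to 4883 ± 208 normalized counts (SD, n = 3; log2 fold change -0.48, SE 0.07, edgeR adjusted p = 0.000512). Psme4 (PA200) was at -0.06, and the assembly chaperone Pomp at -0.24 passed the adjusted p alone (0.0183). Across Psmb5, Psmb6, Psmb7, the 4 activator genes and Pomp, 2 of 8 were called lower, next to the 10.4% of all tested genes, and 0 higher. Without S1P-treated replicate 3, where Psmb6 and Psmb7 passed the fold threshold, it was 4 of 8, next to 1322 of 13751 tested genes.

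Nlrc5 itself was not called. Its normalized counts (ENSMUSG00000074151; chr8:95160984-95253900, plus strand) were 3630, 3593 and 3895 with vehicle and 3852, 3349 and 3461 with S1P, with overlap. The log2 fold change was -0.06 (SE 0.07, 95% interval -0.22 to 0.10, edgeR adjusted p = 0.580). Among 17 genes of class I transcription and interferon gamma signalling, 2 rose, 2 fell and the median was 0.11, and over all tested genes 12.7% were called higher and 10.4% lower. Jak2, a kinase of the interferon gamma receptor, rose from 6298 ± 636 to 11069 ± 944 (SD, n = 3; 0.81, SE 0.09, edgeR adjusted p = 0.000123), and the receptor chain Ifngr2 rose by 0.45 (SE 0.09, adjusted p = 0.00310). The ligand Ifng fell (log2 fold change -0.50), as did Nfyc, a subunit of the CCAAT-binding factor NF-Y (-0.39, SE 0.08, adjusted p = 0.00365). The other NF-Y subunits, Nfya and Nfyb, were uncalled at 0.002 and 0.16. Irf2 at 0.2997 and Rela at 0.22 passed the adjusted p alone (edgeR, 0.0377 and 0.0382). Of the 17 genes, 14 had a positive and 3 a negative log2 fold change, next to 6851 and 6448 of all 13299 tested genes. Irf1, a transcription factor that interferon gamma induces and that acts on genes of antigen processing, was at -0.06 (adjusted p = 0.618), and was singled out after its value had been seen. Of the 10 class II genes, which B cells express, 0 rose and 2 fell (H2-Aa -0.33 and the class II transactivator Ciita -0.33, where 10.4% of all tested genes were called lower). H2-Ob at 0.26 and H2-DMb2 at -0.22 passed the adjusted p alone (edgeR, 0.0411 and 0.0454). The summed normalized count of the 10 was 16023 to 19732 with vehicle and 14003 to 16529 with S1P. H2-Aa lost its call without vehicle-treated replicate 1, vehicle-treated replicate 3 or S1P-treated replicate 2 (-0.30, -0.29 and -0.21). Ciita lost its call in 5 of the 6 fits without 1 library (-0.20 without vehicle-treated replicate 1). Over all 19 alternatives it did so in 12, limma-voom (adjusted p = 0.0579) and the GC offset (adjusted p = 0.0858) among them.

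Per length, the 10 genes spanned a wide range. In TPM (transcript abundance scaled to exon length and to the library), B2m stood at 2708 ± 99 with vehicle, followed by H2-K1 at 1067 ± 37 and H2-D1 at 968 ± 32 (SD, n = 3). Psmb8 at 236 ± 3.4, Tap1 at 211 ± 8.8 and Tapbp at 196 ± 9.2 came next, then Psmb9 at 136 ± 0.87 and Nlrc5 at 131 ± 6.1, then Tap2 at 81.3 ± 6.7 and Psmb10 at 81.0 ± 7.2. The neighbours Tap1 and Tapbp, Psmb9 and Nlrc5, and Tap2 and Psmb10 differed by less than 2 times the larger SD of each pair. With S1P the order was the same but for Psmb8 (190 ± 31) and Tap1 (217 ± 43), which changed places within their spread, and Psmb10 stood at 50.4 ± 14.7 beside Tap2 at 69.2 ± 6.4. The S1P group varied more. Its SD of the normalized count was above that of the vehicle group for 8 of the 10 genes, and its replicate 2 was the lowest of the group for 7 of them (H2-K1, H2-D1, Tap1, Tapbp, Psmb8, Psmb10 and Nlrc5) and the highest for B2m, Tap2 and Psmb9. The shares over all tested genes are not given here, so nothing particular to these genes was drawn. Across the libraries, a chi-square statistic per gene between replicates was 27.1 and 16.0 for S1P-treated replicate 2 against replicates 1 and 3. It was 5.39 between S1P-treated replicates 1 and 3, and 3.50 to 3.63 between vehicle-treated replicates.

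**Figure D5:**
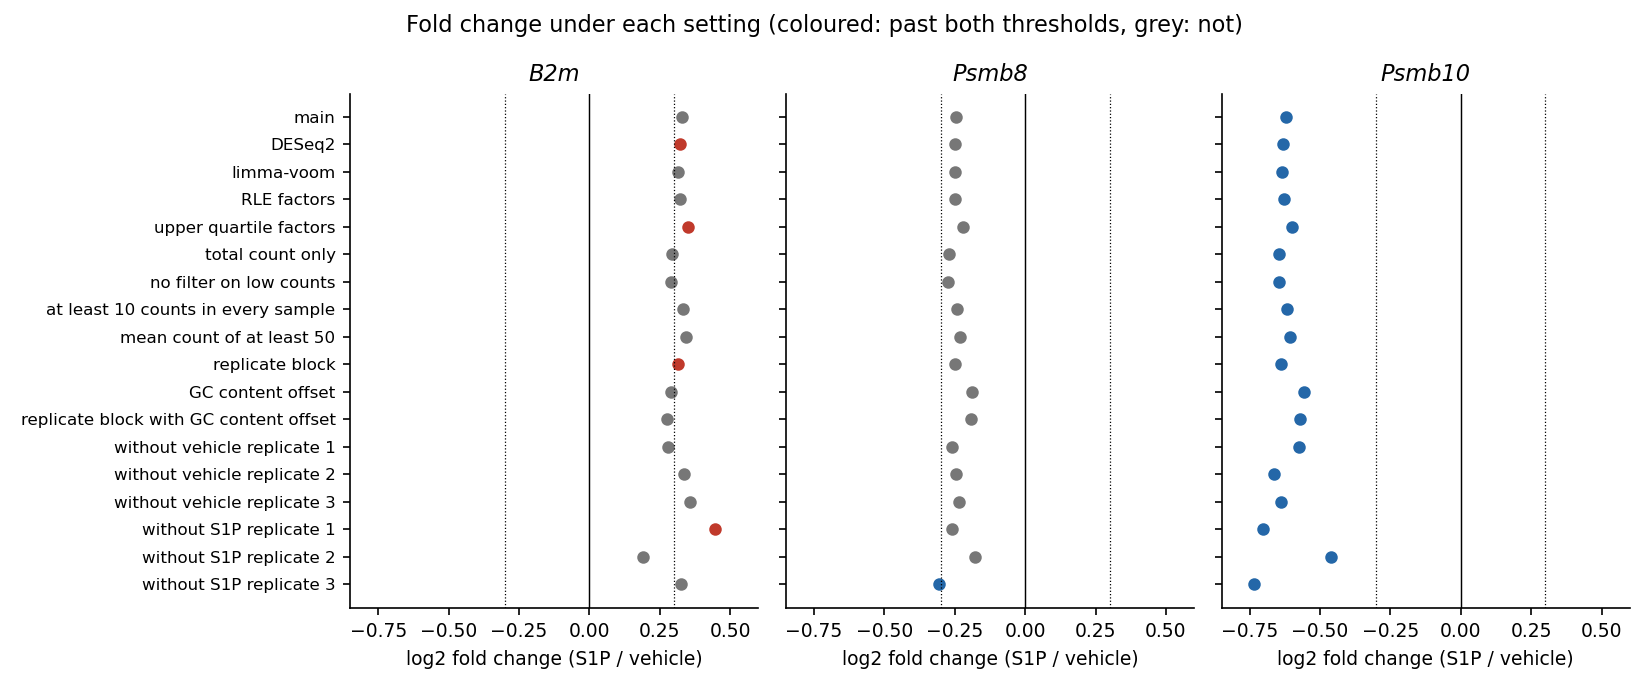
Log2 fold change of B2m, Psmb8 and Psmb10 (horizontal axes) under each way of scaling, filtering, testing or leaving out a library (vertical axis), coloured where past both thresholds. Psmb10 is called lower at every setting shown, Psmb8 at 1 and B2m is called higher at 4, and the values without S1P-treated replicate 2 lie nearest to 0 in all 3 panels.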

How the data were processed

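RNA-seq was analysed from 3 vehicle-treated and 3 S1P-treated samples. The authors made strand-specific poly(A) libraries, used Trim Galore to trim reads, STAR to align them and featureCounts to count them on genes. Per the labels the build is GRCm39. Tool versions, annotation release, strand setting and the handling of multimapped reads are not given in the sources used here. The deposited values are raw counts per gene, and all 6 columns were used.

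Identifiers were matched to GENCODE vM39. In R 4.3.3, genes were filtered with filterByExpr (13299 kept), scaled by TMM and tested with edgeR 4.0.16 (quasi-likelihood, Benjamini-Hochberg adjustment over all tested genes, adjusted p of at most 0.05 and log2 fold change of at least 0.3). Normalized counts are scaled to the mean effective library size. The common biological coefficient of variation was 0.0826. The test was checked on simulated data, and 95% intervals are the estimate plus or minus the t quantile times its SE. Ratios were tested by exact permutation in scipy 1.17.1. Alternatives were DESeq2 1.42.0, limma-voom (limma 3.58.1), other scalings, filters and thresholds, a GC offset, a replicate block and leaving out each library.

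The members and lists were chosen with earlier results of these data known. Named were the 10 members, every tested gene of the loading, counterpart and class Ib lists, and of other lists the called genes and some uncalled ones. Of the lists of regulators and of B cell markers, 1 gene each is not reported here and was left out of counts and sums. Nothing says whether replicates came from separate animals, so p-values measure the spread between these samples. Total counts were at least 12048880, and the lowest count of a member was 174 (Psmb10, S1P-treated replicate 2).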

Additional observations from a re-analysis of the deposited data

How the results depend on the processing

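With a block for the replicate number, 1 member was called higher (B2m, log2 fold change 0.31, edgeR adjusted p = 0.0268) and 1 lower. Over all 13299 tested genes that fit called 1697 higher and 1423 lower. Correlations of the deviations of same-numbered samples were 0.12, -0.0060 and 0.05, not all above 0.1, so the numbers were not taken as pairs. S1P-treated replicates 1 and 3 correlated best with their own number and replicate 2 did not. B2m was also the 1 member called higher by DESeq2 (adjusted p = 0.0201) and with upper quartile factors (0.0385). Upper quartile factors called 1838 of all tested genes higher and 1206 lower, and moved their median log2 fold change from 0.0124 to 0.0358. Leaving out each library gave 0 to 1 members higher and 1 to 2 lower. The second lower call was Psmb8, without S1P-treated replicate 3 (-0.31, adjusted p = 0.0253, range 0.0253 to 0.09997 over these fits). Over all tested genes these fits called 1158 to 1736 higher and 961 to 1492 lower, next to 1687 and 1384 with all samples. With the adjusted p alone there were also 2 members lower, next to 1839 of 13299 tested genes. At a log2 fold change of at least 1 there were 0, next to 82. Class Ib genes called higher numbered 2 with DESeq2 and 0 to 3 without 1 library. They numbered 5 with the GC offset, with or without the replicate block (H2-T23 gained a call at 0.31). Over all tested genes, 1506 were called higher with DESeq2, 1625 with the GC offset and 1652 with offset and block. Loading genes lower numbered 2 to 4 and proteasome counterparts lower 2 to 4 without 1 library. These 3 list counts under other settings were added after the data had been seen.

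Signs turned for 8 uncalled genes. With the GC offset, H2-D1 was at 0.0254, Psmb9 at 0.0344 and Tapbpl at 0.0299, and with GC offset and replicate block at 0.0243, 0.0347 and 0.0285. H2-K1 was at -0.00035 in the classical sum, Tapbpl at 0.0020 with upper quartile factors, and Bcap31 at -0.0110 by total count and -0.0134 unfiltered. Leaving out 1 library, the lowest and highest values were -0.0139 and 0.0778 for H2-K1, -0.0912 and 0.0335 for H2-D1, -0.0820 and 0.0135 for Tapbpl, -0.0277 and 0.0696 for Bcap31, -0.0109 and 0.226 for Psme1, -0.0937 and 0.255 for H2-Q6, and -0.0554 and 0.979 for Fcgrt. The cause was not tested. Without a filter the median of all genes moved to 0.16. Standard errors of the members were 0.06 to 0.14 on the log2 scale. A difference must be several times its SE to pass the adjusted p, so differences of these sizes were not detectable. With all samples, Tap2 at -0.16 (SE 0.07) and B2m at 0.33 (SE 0.12) missed it (edgeR adjusted p = 0.129 and 0.0518).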

Other observations

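The ratio of H2-K1 to H2-D1 per kilobase, in which library scaling cancels, was slightly higher in every S1P-treated sample. The log2 ratio was 0.16, 0.14 and 0.12 with vehicle and 0.18, 0.25 and 0.19 with S1P, a difference of 0.06 (two-sided p = 0.1 in the exact permutation test, which can go no lower here). The ratio of Tap1 to Psmb9, which share a promoter region, overlapped between the groups, with a log2 ratio of 0.63 ± 0.06 with vehicle and 0.75 ± 0.16 with S1P (SD, n = 3; exact permutation test, p = 0.3). These were 2 of 8 quantities tested by exact permutation, and with 3 samples a group no adjusted value can pass 0.05.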
